A study of Mus musculus with 18 samples.

Results

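The response of GC1spg cells to busulfan (Bu) was compared between cells carrying a control siRNA against GFP (siGFP) and cells carrying an siRNA that targets TGR5, a bile acid receptor (siTGR5). For each gene the quantity measured was the effect of Bu against DMSO in siTGR5 cells minus the effect of Bu against DMSO in siGFP cells, on the log2 scale, called the difference below. A positive difference means that the change under Bu was more positive, or less negative, in siTGR5 cells. All 18 libraries of the series entered, and 14783 of the 31643 genes in the table passed a filter on low counts and were tested.

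Bu is an alkylating agent that crosslinks DNA and is given before bone marrow transplantation, and spermatogonia are among the cells most sensitive to it. Crosslinks stop replication forks and elongating RNA polymerase, and the damage activates p53, which raises the cell cycle inhibitor Cdkn1a and pro-apoptotic genes. TGR5, encoded by Gpbar1, is a G protein-coupled receptor for bile acids that raises cyclic AMP.

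GC1spg is an immortalised mouse line used as a model of type B spermatogonia and early spermatocytes. By the labels, DMSO was given to 5 siGFP and 5 siTGR5 libraries and Bu to 4 siGFP and 4 siTGR5 libraries, so every group carried an siRNA and the DMSO groups are the vehicle controls. The labels give no dose, time or siRNA sequence, and do not say how many siRNAs were used against each target. The paper's RNA sequencing methods state a Bu concentration and a treatment time for GC1spg cells but mention no siRNA. No source says whether the cultures were separate, and the p-values therefore refer to the spread among these libraries, which may be technical. All groups come from this 1 cell line.

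Total counts per library ranged from 24745523 to 49638166. Values per library are given in the order of the replicate numbers. Among 12 spermatogonial markers in the table, only Gfra1, Id4 and Etv5 had a median above 1 CPM (counts scaled to equal library totals). The germ cell genes Ddx4 and Dazl had medians of 0.0346 and 0 CPM. Of 8 fibroblast markers 6 had a median above 1 CPM. Col1a1 and Vim had medians of 2830 and 1890 CPM, and Pdgfrb and Lum of 0.766 and 0.0382 CPM. Of 4 Sertoli and 3 Leydig markers, 2 and 1 had a median above 1 CPM, with Wt1 at 229 and Cyp11a1 at 5.36 CPM. The summed level of 22 rod photoreceptor markers, genes of the retina with a median of at most 1 CPM here, stood apart at 9.34 to 116 CPM in 7 libraries (siGFP DMSO 1 and 5, siGFP Bu 2 and 4, siTGR5 DMSO 4, siTGR5 Bu 1 and 3) against 2.44 to 4.12 CPM in the other 11. Of these markers 18 were tested, and 0 were called in the difference by edgeR or DESeq2 or had an unadjusted p under 0.05. The summed level ran from 2.78 to 116 CPM within siGFP DMSO alone, so the absence of calls does not show balance between groups. Over the 23 tested members of the full rod list the median difference was 0.53, with 19 positive and 4 negative. Their median Bu effects were -1.09 in siGFP and -0.28 in siTGR5 cells. The part of these libraries in a result was not tested beyond leaving all 7 out. That leaves 3 siGFP DMSO, 2 siGFP Bu, 4 siTGR5 DMSO and 2 siTGR5 Bu libraries.

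The siRNA target was scarce in all groups. Raw counts of Gpbar1 were 40, 13, 29, 28 and 28 in siGFP DMSO, 8, 17, 17 and 15 in siGFP Bu, 18, 16, 18, 11 and 4 in siTGR5 DMSO and 15, 8, 10 and 11 in siTGR5 Bu. Its normalised level was 0.698 ± 0.178 CPM (SD, n = 5) in siGFP DMSO and 0.354 ± 0.146 CPM (SD, n = 5) in siTGR5 DMSO, and the ranges of these groups overlapped. In DMSO, Gpbar1 was lower with siTGR5 by edgeR's quasi-likelihood test (log2 difference -0.98 ± 0.28 SE, Benjamini-Hochberg adjusted p = 0.0123). Under Bu the level was 0.465 ± 0.183 CPM (SD, n = 4) with siGFP and 0.349 ± 0.0561 CPM (SD, n = 4) with siTGR5, which was not called (edgeR adjusted p = 0.465). The difference of its Bu effect was 0.61 ± 0.47 (SE, 95% interval -0.35 to 1.58), so counts this low bound it only loosely.

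Over the 14783 genes the effects in siGFP and siTGR5 cells, which share no library, had a Pearson r of 0.64 and a Spearman rho of 0.61 across genes, and genes are not independent replicates. At an adjusted p under 0.05 (edgeR quasi-likelihood test, used for every call below) Bu raised 2315 genes (15.7%) and lowered 2393 (16.2%) in siGFP cells, and raised 1914 (12.9%) and lowered 2056 (13.9%) in siTGR5 cells. Of 2602 genes called in both, 2577 moved in the same direction and 25 in opposite directions.

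The effect itself differed for 203 genes (1.37%), of which 107 had a higher (0.724%) and 96 a lower (0.649%) effect in siTGR5 cells. The size of the called differences ran from 0.17 to 2.58 on the log2 scale with a median of 0.31, against a median SE of 0.09 over all genes tested. Most higher genes were genes that Bu lowered in siGFP cells: 53 fell in siGFP cells and were not called in siTGR5 cells, 23 fell in both, 11 fell in siGFP cells and rose in siTGR5 cells, 16 rose with a call in siTGR5 cells alone and 4 rose in both. The lower genes were more mixed, with 29 that rose with a call in siGFP cells alone, 31 that fell with a call in siTGR5 cells alone, 18 that fell in both, 14 that rose in siGFP cells and fell in siTGR5 cells and 4 that rose in both. Seen from the other side, the siRNAs differed under Bu for 94 of the higher and 84 of the lower genes, and in DMSO for 54 and 45, where 33.8% and 26.1% of all genes tested differed.

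The number of called genes depended on single libraries. It was 125 without siGFP DMSO 1, 135 without siGFP DMSO 3, 119 without siTGR5 DMSO 1, 135 without siTGR5 DMSO 3, 118 without siTGR5 DMSO 4, 87 without siTGR5 Bu 2, 101 without siTGR5 Bu 3 and 97 without siTGR5 Bu 4. Leaving out the 7 libraries with rod markers left 47 called genes, 41 of them among the 203, and all 203 kept their sign. The 203 were called from data that include the remaining libraries, so the kept signs are no independent test. There were 74 genes called in every fit that left out 1 library.

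**Figure D1:**
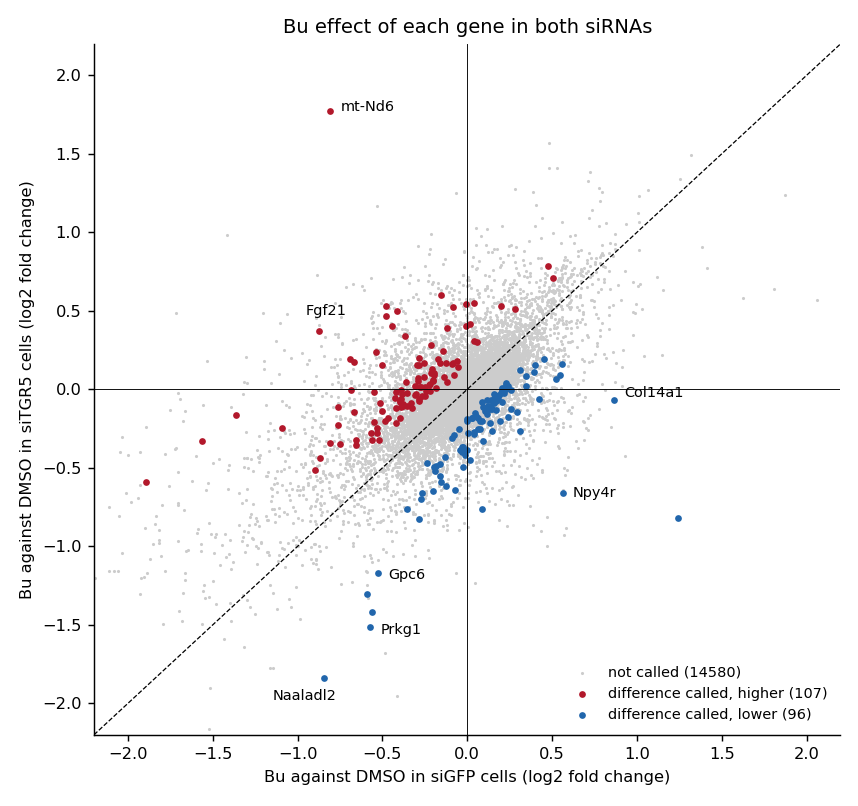
Effect of Bu against DMSO on each of the 14783 genes tested, as log2 fold change in siGFP cells (x axis) and in siTGR5 cells (y axis), with the dashed line marking equal effects and 5 genes lying beyond the axes. Red points are the 107 genes with a called higher effect and blue points the 96 with a called lower effect in siTGR5 cells, and the long genes Gpc6, Prkg1 and Naaladl2 lie far below the line while mt-Nd6 lies far above it.

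Of the 34 lists, the one with the largest share of called higher members was hypoxia and glycolysis, genes that the oxygen-sensing factor HIF1 raises and that carry glucose to lactate. The list held 38 symbols, of which 36 were tested as 37 gene records (Aldoa has 2). Of these, 10 had a called higher effect and 0 a lower one, against 0.724% and 0.649% of all genes tested, and the difference was positive in 37 of 37 with a median of 0.19, against a median of 0.00 over all genes tested. Bu lowered 32 records and raised 0 in siGFP cells (median -0.26), and lowered 8 and raised 1 in siTGR5 cells (median -0.04), where over all genes tested it lowered 16.2% and 13.9%. P4ha1 is also in the matrix list below. The called members were Pfkl, Slc16a3, Vegfa, Pgam1, P4ha1, Slc2a1, Pkm, Bnip3, Ak4 and Eno1. This list, like the others, was drawn up with earlier results of these data known, so its counts are a description.

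Pfkl, the liver-type phosphofructokinase of the committed step of glycolysis (chr10:77986947-78010083 in mm10), read 293, 299, 311, 289 and 289 CPM in siGFP DMSO and 220.4, 212, 224 and 229 CPM in siGFP Bu. In siTGR5 cells it read 239, 263, 269.6, 262 and 253 CPM with DMSO and 226, 266, 271 and 254 CPM with Bu. The siGFP groups did not overlap and the siTGR5 groups did. Pfkl fell by 25.2% in siGFP cells, and its difference was 0.40 ± 0.06 (SE, edgeR adjusted p = 0.00227, and 0.0208 without the 7 rod-marker libraries).

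Slc16a3, the monocarboxylate transporter that exports lactate (chr11:120948480-120960868 in mm10), gave 363, 387, 404, 361 and 336 CPM in siGFP DMSO and 274, 278, 293 and 286 CPM in siGFP Bu. The siTGR5 libraries gave 317, 353, 344, 338 and 314 CPM with DMSO and 309.6, 335, 343 and 319 CPM with Bu. It fell in siGFP cells with no overlap of the groups, while the siTGR5 groups overlapped widely. The difference was 0.36 ± 0.07 (SE, edgeR adjusted p = 0.00937, and 0.0344 without the 7 rod-marker libraries).

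Pgam1, the phosphoglycerate mutase, moved in opposite directions. Its levels were 21.3, 19.7, 22.8, 20.4 and 23.5 CPM in siGFP DMSO and 18.5, 17.8, 17.2 and 20.8 CPM in siGFP Bu. They were 18.5, 17.3, 20.3, 19.0 and 21.6 CPM in siTGR5 DMSO and 21.4, 24.1, 25.0 and 23.96 CPM in siTGR5 Bu. Bu lowered it in siGFP cells (-0.21 ± 0.07, SE, edgeR adjusted p = 0.0196) and raised it in siTGR5 cells (0.28 ± 0.07, SE, edgeR adjusted p = 0.00338), and in each siRNA the DMSO and Bu ranges overlapped. The call of its difference was lost without the 7 rod-marker libraries (edgeR adjusted p = 0.0834).

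Vegfa, the angiogenic growth factor and a classical HIF1 target (chr17:46016993-46032369 in mm10), followed Pfkl. It read 128, 136, 149, 122 and 134 CPM in siGFP DMSO and 87.3, 91.0, 91.0 and 105 CPM in siGFP Bu. In siTGR5 cells the values were 126, 139, 129, 121 and 135 CPM with DMSO and 117, 126, 115 and 131 CPM with Bu. Only the siGFP groups stood apart, with a fall of 30.0%. The difference was 0.43 ± 0.08 (SE, edgeR adjusted p = 0.0102, and 0.0224 without the 7 rod-marker libraries).

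The other called members had differences of 0.26 to 0.41, namely Bnip3, a mitophagy receptor, Slc2a1, the glucose transporter GLUT1, Ak4, a mitochondrial adenylate kinase, Eno1, the enolase, P4ha1, a prolyl hydroxylase of collagen, and Pkm, the pyruvate kinase. Not every hypoxia gene behaved so. Epas1, which encodes HIF2, changed by -0.39 ± 0.05 (SE) in siGFP cells and -0.38 ± 0.05 (SE) in siTGR5 cells, with a difference of 0.02, and Aldoc and Hk2 also fell in both. Hif1a itself changed by -0.13 ± 0.04 (SE) in siGFP cells and -0.01 ± 0.04 (SE) in siTGR5 cells. Gapdh had the largest estimate of the list (0.65 ± 0.18 SE), which was not called, and its reads may be shared with its many pseudogenes.

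**Figure D2:**
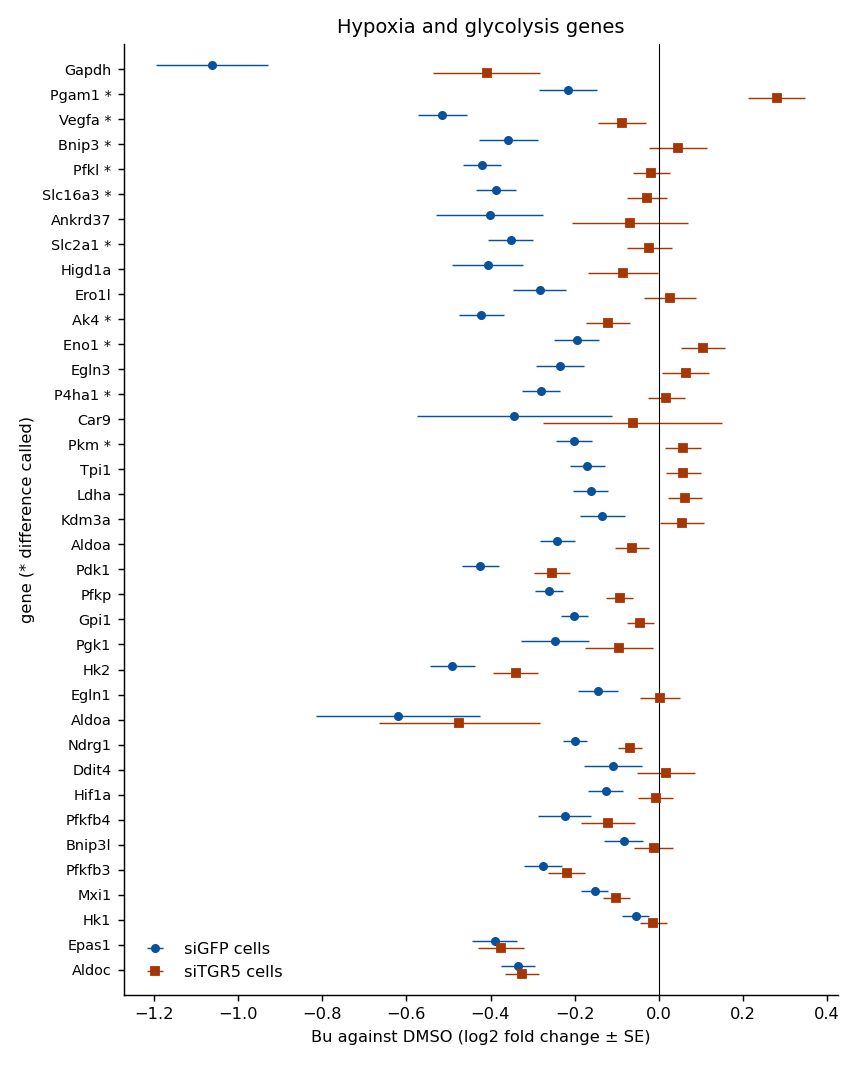
Bu effect on the 37 hypoxia and glycolysis records tested, as log2 fold change with its SE, in siGFP cells (blue circles) and siTGR5 cells (brown squares), ordered by the difference, with stars on the 10 genes whose difference was called. The blue point lies left of the brown one for all 37, and the pairs at the bottom, such as Aldoc and Epas1, nearly coincide.

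Averaged over the 37 records as mean log2(CPM + 0.5) relative to the mean of siGFP DMSO, the libraries of siGFP DMSO lay between -0.05 and 0.05 and those of siGFP Bu between -0.31 and -0.25. The siTGR5 libraries lay between -0.13 and -0.06 with DMSO and between -0.22 and -0.12 with Bu. The siGFP groups were thus far apart and the siTGR5 groups close to each other and slightly overlapping, and siTGR5 DMSO lay below siGFP DMSO. Without the 7 rod-marker libraries 8 members were called and the median difference was 0.27. Without 1 library the count was 5 or 6 when siGFP DMSO 1, 2 or 3, siGFP Bu 1 or 2 or siTGR5 DMSO 1 or 2 was left out, and 4 when siTGR5 Bu 2, 3 or 4 was, while the median stayed between 0.18 and 0.24.

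Promoter windows are shown for called members because these genes moved together and ACGTG, a form of the HIF binding core, is short enough to search for. Other forms of the core, such as GCGTG, were not searched for, so a window without ACGTG may hold another form. The windows run from 250 bases before to 50 bases after the transcription start of RefSeq (GRCm38.p6), are written 5′ to 3′ on the strand of the gene, and have ACGTG or its reverse complement CACGT in capitals.
Slc16a3 (chr11:120948817-120949116, plus strand): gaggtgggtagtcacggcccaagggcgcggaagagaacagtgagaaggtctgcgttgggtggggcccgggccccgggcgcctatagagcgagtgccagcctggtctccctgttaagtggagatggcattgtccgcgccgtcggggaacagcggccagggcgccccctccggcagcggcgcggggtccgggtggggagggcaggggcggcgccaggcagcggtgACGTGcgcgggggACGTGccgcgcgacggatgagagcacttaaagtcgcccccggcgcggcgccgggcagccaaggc
Pgam1 (chr19:41911621-41911920, plus strand): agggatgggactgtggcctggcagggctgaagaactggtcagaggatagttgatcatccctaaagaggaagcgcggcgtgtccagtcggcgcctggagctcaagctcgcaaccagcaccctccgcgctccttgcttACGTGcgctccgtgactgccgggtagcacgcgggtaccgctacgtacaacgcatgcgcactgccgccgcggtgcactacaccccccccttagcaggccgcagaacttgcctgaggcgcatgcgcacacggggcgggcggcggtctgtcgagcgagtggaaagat
Pfkl (chr10:78009758-78010057, minus strand): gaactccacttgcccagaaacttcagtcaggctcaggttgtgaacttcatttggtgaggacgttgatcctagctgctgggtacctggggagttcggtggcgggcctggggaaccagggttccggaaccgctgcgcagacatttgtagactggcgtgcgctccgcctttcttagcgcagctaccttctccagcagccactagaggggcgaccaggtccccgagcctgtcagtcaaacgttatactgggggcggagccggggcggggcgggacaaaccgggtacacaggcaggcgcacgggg
The letters occurred 2 times in the window of Slc16a3 and 1 time in that of Pgam1, and in neither that of Pfkl nor that of Vegfa. Of 32 hypoxia and glycolysis genes with a window, 18 (56.2%) held them on either strand, against 2677 of 10458 (25.6%) over all genes tested that had a window. The list was drawn up around genes that HIF1 raises, so this share describes the choice of genes and not their difference. Within the list, 5 of 10 called members and 13 of 22 others held the letters. A match is a description of the sequence and not a binding site.

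Collagens and other matrix genes formed the next group. Of 57 symbols 52 were tested, and 7 had a called higher and 2 a called lower effect in siTGR5 cells (0.724% and 0.649% of all genes tested), with a median difference of 0.13. Bu lowered 36 of the 52 in siGFP cells (median -0.22, against 16.2% of all genes) and 17 in siTGR5 cells (median -0.08, against 13.9%). The higher members were P4ha2, Col6a2, Col1a1, Loxl2, P4ha1, Col4a2 and Col5a2, and the lower ones Col11a1 and Col14a1. Without the 7 rod-marker libraries 3 members were called higher and 0 lower, with Col6a2, Col4a2 and Col1a1 among those not called (edgeR adjusted p = 0.188, 0.115 and 0.0812), and without siTGR5 Bu 3 or siTGR5 Bu 4 there were 4 higher and 1 lower.

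P4ha2, which hydroxylates prolines of nascent collagen and is also induced by hypoxia, read 299.6, 289.6, 310.0, 280.4 and 297 CPM in siGFP DMSO and 215, 214, 212 and 237 CPM in siGFP Bu. With siTGR5 it read 286, 301, 309, 303 and 310.1 CPM in DMSO and 268, 305, 292 and 299 CPM under Bu. It fell by 25.5% in siGFP cells, with separate groups, and the siTGR5 groups overlapped. The difference was 0.37 ± 0.06 (SE, edgeR adjusted p = 0.00227, and 0.0175 without the 7 rod-marker libraries).

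Col1a1, the main chain of type I collagen, read 3388, 3449.8, 3483, 3379 and 3046 CPM in siGFP DMSO and 2783, 2329.8, 2554 and 2536 CPM in siGFP Bu. In siTGR5 cells it read 2721, 2950.4, 3015, 2844 and 2807 CPM with DMSO and 2651, 2983, 2725 and 2650.1 CPM with Bu. Again DMSO and Bu were separate only with siGFP, and all siTGR5 DMSO libraries lay below the siGFP DMSO libraries. The difference was 0.33 ± 0.07 (SE, edgeR adjusted p = 0.0149), and the call was lost without the 7 rod-marker libraries (edgeR adjusted p = 0.0812).

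Nid2, a basement membrane protein outside the list, read 35.4, 38.4, 37.3, 38.0 and 38.4 CPM in siGFP DMSO and 25.7, 22.2, 28.4 and 26.2 CPM in siGFP Bu. The values were 35.4, 37.1, 38.0, 38.9 and 37.9 CPM in siTGR5 DMSO and 34.4, 39.1, 39.1 and 35.7 CPM in siTGR5 Bu. Bu lowered it by 31.7% in siGFP cells, whereas the effect in siTGR5 cells was -0.02 ± 0.05 (SE) with overlapping groups. The difference was 0.53 ± 0.08 (SE, edgeR adjusted p = 0.00161, and 0.0239 without the 7 rod-marker libraries).

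The 2 lower members went the other way. Col14a1, a collagen that associates with fibrils, rose in siGFP cells (0.87 ± 0.13, SE) and changed by -0.07 ± 0.15 (SE) in siTGR5 cells, and its difference was not called without the 7 rod-marker libraries (edgeR adjusted p = 0.12). Col11a1, named after its values were seen, changed by -0.02 ± 0.07 (SE) and -0.49 ± 0.07 (SE). The latent TGF-beta binding protein Ltbp2 was the 1 called of 39 Wnt and TGF-beta genes tested, against 0.649% of all genes tested called lower. Ltbp2 changed by 0.09 ± 0.13 (SE) in siGFP cells and -0.76 ± 0.14 (SE) in siTGR5 cells. Its difference of -0.85 ± 0.19 (SE) was called in 14 of the 18 fits that left out 1 library.

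Of 31 tested chaperones and unfolded protein response genes of the endoplasmic reticulum, 2 were called higher, Hyou1 and Calr, both chaperones there, against 0.724% of all genes tested, and the median difference was 0.06. Bu lowered 15 of the 31 in siGFP cells and 10 in siTGR5 cells, against 16.2% and 13.9% of all genes. The call of Calr held in 7 of the 18 fits without 1 library and not without the 7 rod-marker libraries (edgeR adjusted p = 0.307). Hyou1 read 239, 231, 237, 251 and 228 CPM in siGFP DMSO and 189, 178, 184 and 179.7 CPM in siGFP Bu. It read 251, 247, 252, 247 and 242 CPM in siTGR5 DMSO and 232, 227, 239 and 224 CPM in siTGR5 Bu. It fell in both siRNAs without overlap, by 23.1% with siGFP and 7.21% with siTGR5, and the difference of 0.27 ± 0.05 (SE, edgeR adjusted p = 0.0046) was not called without the 7 rod-marker libraries (edgeR adjusted p = 0.118).

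The amino acid response, the genes that the factor ATF4 induces when amino acids run short, held more members that fell under Bu in siGFP cells and more that rose in siTGR5 cells. Of 37 members tested, Bu raised 3 and lowered 11 in siGFP cells (median -0.10) and raised 13 and lowered 2 in siTGR5 cells (median 0.09), where over all genes tested it raised 15.7% and 12.9% and lowered 16.2% and 13.9%. The difference was positive in 36 of 37 with a median of 0.19, and 4 were called higher, against 0.724% of all genes tested: Fgf21, a secreted metabolic hormone, Slc7a11, the cystine transporter, Mthfd2, of mitochondrial one-carbon metabolism, and Aars, the alanyl-tRNA synthetase. The count was 0 without siTGR5 Bu 2, 3 or 4, 1 without siGFP DMSO 1 or 3, siGFP Bu 1 or 2, or siTGR5 DMSO 1, 3, 4 or 5, and 2 without siGFP DMSO 2 or 5 or siGFP Bu 3. It was 10 without siGFP Bu 4 and 8 without siTGR5 Bu 1, and 2 without the 7 rod-marker libraries. The median stayed between 0.15 and 0.23 in the fits without 1 library. The mean score of the list relative to siGFP DMSO was -0.09 to 0.09 in siGFP DMSO and -0.16 to -0.02 in siGFP Bu. With siTGR5 the score was -0.23 to -0.03 in DMSO and -0.11 to 0 under Bu. All these ranges overlapped. The rise in siTGR5 cells started from the lowest group mean (-0.15 in siTGR5 DMSO). It ended at -0.05 in siTGR5 Bu, which was below the mean of siGFP DMSO.

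Slc7a11 read 5.89, 5.38, 5.97, 4.59 and 6.62 CPM in siGFP DMSO and 5.31, 3.99, 4.73 and 6.45 CPM in siGFP Bu. With siTGR5 it read 3.45, 3.80, 3.83, 3.29 and 3.49 CPM in DMSO and 4.42, 6.42, 4.81 and 6.17 CPM under Bu. Here the siGFP groups overlapped and the siTGR5 groups did not. Bu raised it by 51.9% in siTGR5 cells, from a level that was lower in DMSO than with siGFP. The difference was 0.76 ± 0.18 (SE, edgeR adjusted p = 0.0394, and 0.0452 without the 7 rod-marker libraries) and was called in 4 of the 18 fits that left out 1 library.

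Fgf21 was scarce, at 1.76, 1.95, 1.90, 1.45 and 1.99 CPM in siGFP DMSO and 0.473, 0.831, 1.21 and 1.51 CPM in siGFP Bu. It read 1.55, 2.18, 1.42, 1.51 and 1.51 CPM in siTGR5 DMSO and 1.58, 2.49, 2.06 and 2.37 CPM in siTGR5 Bu. Both pairs of groups overlapped. Its difference of 1.25 ± 0.30 (SE, edgeR adjusted p = 0.0416) was called in 5 of the 18 fits without 1 library and not without the 7 rod-marker libraries (edgeR adjusted p = 0.0853).

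Slc7a11 is also a target of NRF2, the factor that answers oxidative stress, and of the 41 NRF2 and oxidative stress genes tested it was called together with Hmox1, the haem oxygenase, and Txnrd1, the thioredoxin reductase, all higher, against 0.724% of all genes tested. The median difference of this list was 0.00, with 22 members raised and 1 lowered by Bu in each siRNA, where 15.7% and 12.9% of all genes were raised. Txnrd1 rose in both, by 41.7% with siGFP and 63.3% with siTGR5, and Hmox1 changed by 0.06 ± 0.04 (SE) with siGFP and rose by 23.1% with siTGR5. Their calls held in 2 and 6 of the 18 fits without 1 library. The count of called higher members was 2 without siGFP DMSO 4 or siGFP Bu 3, 4 without siTGR5 Bu 1, 0 or 1 without any other single library, and 1 without the 7 rod-marker libraries. Sod2, the mitochondrial superoxide dismutase, had a difference of -0.14 ± 0.07 (SE, 95% interval -0.29 to 0.00).

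Cyclic AMP is the second messenger of TGR5, and its genes were looked at for that reason. Of 31 members tested, 2 had a called higher effect, against 0.724% of all genes tested, the adenylate cyclase Adcy1, which makes cyclic AMP, and the phosphodiesterase Pde4b, which degrades it, and the median difference was 0.04. Bu lowered 14 and raised 0 of the 31 in siGFP cells, and lowered 10 and raised 2 in siTGR5 cells, where 16.2% and 13.9% of all genes were lowered. Among 20 genes that cyclic AMP and CREB induce, Pde4b was the 1 called and the median difference was 0.05.

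Adcy1 read 4.43, 3.87, 5.60, 4.68 and 5.27 CPM in siGFP DMSO and 2.74, 2.39, 3.23 and 3.52 CPM in siGFP Bu. It read 5.27, 5.03, 4.49, 4.57 and 4.55 CPM in siTGR5 DMSO and 5.04, 4.72, 5.46 and 6.54 CPM in siTGR5 Bu. The siGFP groups were separate, with a fall of 38.1%, and the siTGR5 groups overlapped. The difference was 0.88 ± 0.17 (SE, edgeR adjusted p = 0.0102), called in all 18 fits without 1 library but not without the 7 rod-marker libraries (edgeR adjusted p = 0.115).

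Pde4b fell in siGFP cells and rose in siTGR5 cells. It read 13.0, 12.5, 13.8, 12.8 and 13.3 CPM in siGFP DMSO and 11.2, 9.24, 11.3 and 11.2 CPM in siGFP Bu. It read 13.7, 12.8, 13.6, 13.97 and 13.3 CPM in siTGR5 DMSO and 14.7, 13.7, 16.7 and 16.8 CPM in siTGR5 Bu. The siGFP groups did not overlap and the siTGR5 groups did. The effects were -0.29 ± 0.07 (SE, edgeR adjusted p = 0.00235) and 0.20 ± 0.07 (SE, edgeR adjusted p = 0.0251), and the difference was called in all 18 fits without 1 library and not without the 7 rod-marker libraries (edgeR adjusted p = 0.197).

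The smallest p of all belonged to mt-Nd6, a subunit of respiratory complex I and the protein-coding gene of the mitochondrial light strand. It read 129, 87.9, 152, 160.3 and 162 CPM in siGFP DMSO and 86.5, 73.2, 62.9 and 93.3 CPM in siGFP Bu. It read 42.7, 34.7, 26.0, 36.1 and 33.9 CPM in siTGR5 DMSO and 122, 128, 113 and 109.5 CPM in siTGR5 Bu. The siTGR5 DMSO libraries were the lowest and the siTGR5 Bu libraries lay above all of them, while the siGFP groups overlapped. The difference was 2.58 ± 0.20 (SE, edgeR adjusted p = 1.03e-07, and 0.000995 without the 7 rod-marker libraries), made up of -0.81 ± 0.14 (SE) with siGFP and 1.77 ± 0.14 (SE) with siTGR5. It was called in all 18 fits without 1 library.

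Of the 9 mitochondrially encoded genes tested, mt-Nd6 was the 1 called in the difference, against 0.724% of all genes tested called higher. Its protein-coding neighbours on the genome are read from the other strand. The genes mt-Nd1, mt-Nd2, mt-Nd4, mt-Cytb and mt-Co1 had differences of -0.07 to 0.03. mt-Nd5, the neighbour of mt-Nd6 on the opposite strand, had a difference of 0.26 (edgeR adjusted p = 0.161), and the ribosomal RNAs mt-Rnr2 and mt-Rnr1 had differences of 0.45 and 0.23 (edgeR adjusted p = 0.75 and 0.86). The libraries were prepared with a stranded kit, and whether the counting used strand is not given in the sources used here, so reads of both strands may be mixed for these neighbours. Of 74 nuclear-encoded respiratory chain genes tested 0 were called by edgeR or DESeq2, with a median difference of -0.06. Of the 74, 4 had an unadjusted p under 0.05, against 1993 of all 14783 genes tested.

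**Figure D3:**
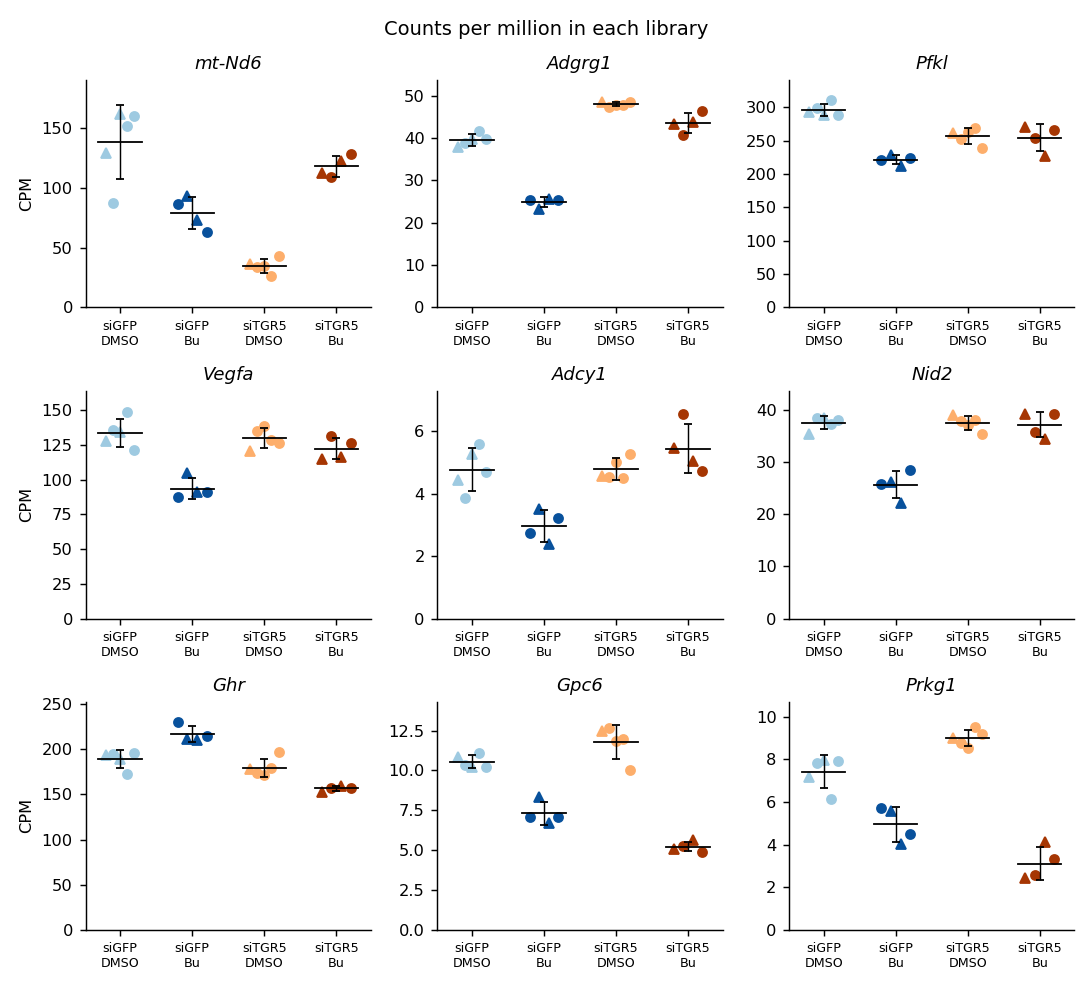
CPM of 9 genes in each of the 18 libraries, by siRNA and agent, with the group mean as a line and the SD as the error bar (n = 5 for DMSO, n = 4 for Bu) and triangles for the 7 rod-marker libraries. Pfkl, Vegfa, Adcy1 and Nid2 fell with Bu in siGFP cells while their siTGR5 groups overlapped, Ghr went up in siGFP and down in siTGR5 cells, and Gpc6 and Prkg1 had their lowest group mean in siTGR5 Bu.

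Adgrg1, an adhesion G protein-coupled receptor, had the second smallest p. It read 37.9, 38.8, 41.7, 39.8 and 39.8 CPM in siGFP DMSO and 25.4, 25.7, 25.4 and 23.3 CPM in siGFP Bu. It read 48.5, 47.8, 47.8, 48.6 and 47.4 CPM in siTGR5 DMSO and 43.7, 46.5, 43.3 and 40.7 CPM in siTGR5 Bu. In each siRNA the Bu libraries lay below the DMSO libraries, and siTGR5 lay above siGFP within DMSO and within Bu, while siGFP DMSO and siTGR5 Bu overlapped. Bu lowered it by 37.1% with siGFP and 9.35% with siTGR5, a difference of 0.53 ± 0.06 (SE, edgeR adjusted p = 4.57e-05, and 0.0215 without the 7 rod-marker libraries).

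The uncharacterised 5033406O09Rik rose in siTGR5 cells alone by call. It read 10.0, 10.9, 10.5, 9.69 and 11.0 CPM in siGFP DMSO and 8.84, 9.97, 10.4 and 10.1 CPM in siGFP Bu. It read 10.6, 10.2, 10.1, 10.2 and 10.1 CPM in siTGR5 DMSO and 14.1, 14.6, 15.1 and 15.1 CPM in siTGR5 Bu. The other 3 groups overlapped and siTGR5 Bu lay above them, 43.8% above siTGR5 DMSO in the fit. The difference was 0.61 ± 0.08 (SE, edgeR adjusted p = 0.000676, and 0.0317 without the 7 rod-marker libraries).

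Krt7, a keratin of simple epithelia, and Csf1, the macrophage growth factor, fell in siGFP cells by 29.3% and 18.9%. Neither was called in siTGR5 cells (0.15 ± 0.07 and -0.03 ± 0.03, SE). Csf1 was the 1 called of 35 NF-kB and inflammatory genes tested, and Egr1 the 1 called of 34 immediate early genes tested. Both were called higher, against 0.724% of all genes tested. The immediate early gene Egr1 fell by 18.3% in siGFP cells and changed by 0.05 ± 0.06 (SE) in siTGR5 cells, a difference called in 2 of the 18 fits without 1 library and not without the 7 rod-marker libraries (edgeR adjusted p = 0.145). Ing4, a chromatin reader, P2rx3, an ATP-gated channel, Ptprq, a receptor phosphatase, and Apol6, an apolipoprotein L, had the largest called differences after mt-Nd6 and Fgf21 (0.91 to 1.20), taking genes that averaged at least 1 CPM. Their group means were low, 0.522 to 6.31 CPM, and Ing4 and Ptprq were called in 3 and 4 of the 18 fits without 1 library. Without the 7 rod-marker libraries P2rx3 was called (edgeR adjusted p = 0.0263), and Ing4, Ptprq and Apol6 were not (edgeR adjusted p = 0.11, 0.314 and 0.12).

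The lower genes were led by genes that occupy long stretches of genome. The span here is the distance from start to end of the gene in the deposited table (mm10), and its classes were chosen after the leading genes had been seen. The 96 lower genes had a median span of 88.4 kb and the 107 higher genes one of 27.0 kb, against 19.7 kb over all genes tested. Of the 174 tested genes spanning over 400 kb, 23 (13.2%) had a called lower and 3 (1.72%) a called higher effect in siTGR5 cells.

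More long genes fell under Bu in siTGR5 cells than in siGFP cells. Over the 174 genes the median effect was -0.24 with siGFP, where 95 (54.6%) fell, and -0.38 with siTGR5, where 120 (69.0%) fell. The median difference was -0.14, and 132 of the 174 differences were negative. In genes of 200 to 400 kb the medians were -0.13 and -0.19, and 10 of 440 (2.27%) were called lower. Up to 50 kb the class medians of the effects lay between 0.00 and 0.02 in both siRNAs, and between 0.141% and 0.473% of a class were called lower.

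**Figure D4:**
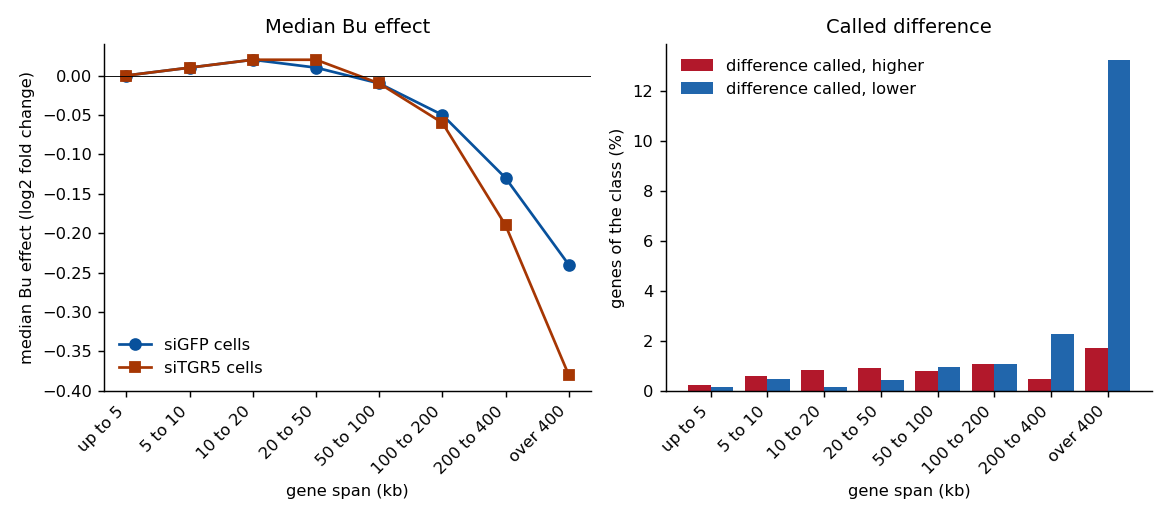
Left, median Bu effect (log2 fold change) over the tested genes of each span class in siGFP cells (blue) and siTGR5 cells (brown). Right, share of each class with a called higher (red) or lower (blue) difference, where 13.2% of the 174 genes over 400 kb were called lower against 0.649% of all genes tested.

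Averaged over the 174 genes as mean log2(CPM + 0.5) relative to siGFP DMSO, the DMSO libraries lay between -0.05 and 0.03 with siGFP and between -0.03 and 0.01 with siTGR5. The Bu libraries lay between -0.33 and -0.13 with siGFP and between -0.40 and -0.31 with siTGR5. The DMSO groups thus overlapped between siRNAs, and the Bu groups overlapped only through siGFP Bu 2, a rod-marker library at -0.33. The count of called lower genes was 12 without siTGR5 Bu 3, 13 without siGFP Bu 1 or siTGR5 DMSO 1, 14 without siTGR5 Bu 2 or 4 and 16 to 23 without any other library. It was 6 without the 7 rod-marker libraries, where the median difference was -0.20.

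Prkg1, the cyclic GMP-dependent protein kinase (chr19:30567551-31765033 in mm10, 1200 kb), read 7.19, 7.85, 6.14, 7.91 and 7.97 CPM in siGFP DMSO and 5.71, 4.02, 4.48 and 5.58 CPM in siGFP Bu. It read 9.18, 8.54, 9.54, 9.01 and 8.76 CPM in siTGR5 DMSO and 4.11, 3.32, 2.43 and 2.57 CPM in siTGR5 Bu. The siTGR5 DMSO libraries lay above the siGFP DMSO libraries, both falls were free of overlap, and the Bu groups overlapped. Bu lowered it by 32.8% and 65.0%, a difference of -0.94 ± 0.17 (SE, edgeR adjusted p = 0.00937, and 0.0281 without the 7 rod-marker libraries).

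Gpc6, a heparan sulphate proteoglycan of the cell surface (chr14:116925315-117976544 in mm10, 1050 kb), read 10.9, 10.3, 11.1, 10.2 and 10.2 CPM in siGFP DMSO and 7.07, 6.71, 7.08 and 8.36 CPM in siGFP Bu. It read 10.0, 11.8, 12.0, 12.5 and 12.7 CPM in siTGR5 DMSO and 5.61, 4.90, 5.09 and 5.26 CPM in siTGR5 Bu. In both siRNAs the groups were separate, and siTGR5 Bu was the lowest of the 4. The falls were 30.6% and 55.5%, and the difference was -0.64 ± 0.11 (SE, edgeR adjusted p = 0.0046, and 0.106 without the 7 rod-marker libraries).

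Cdk14, a cyclin-dependent kinase of Wnt signalling (617 kb), and Fam172a (464 kb) fell by 33.5% and 23.6% in siTGR5 cells, against changes of -0.15 ± 0.05 and 0.00 ± 0.04 (SE) in siGFP cells. Naaladl2 (1350 kb) and Immp2l (931 kb), both near 2 CPM, fell by 72.1% and 62.6% in siTGR5 cells and by 44.3% and 32.3% in siGFP cells. Their differences were called in 6 and 5 of the 18 fits without 1 library. Without the 7 rod-marker libraries Cdk14 was called (edgeR adjusted p = 0.037), and Fam172a, Naaladl2 and Immp2l were not (edgeR adjusted p = 0.055, 0.0929 and 0.366). Kif16b, an endosomal kinesin of 284 kb, fell by 22.4% in siTGR5 cells and changed by -0.02 ± 0.04 (SE) in siGFP cells.

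Other long genes called lower were named after their values were seen. They included 3 receptor-type tyrosine phosphatases, Ptprg (-0.42 ± 0.10 SE), Ptprm (-0.40 ± 0.08 SE) and Ptprk (-0.22 ± 0.05 SE), the scaffold Magi2 (-0.54 ± 0.12 SE), the adhesion receptor Adgrl3 (-0.71 ± 0.14 SE) and the oxidoreductase Wwox (-0.44 ± 0.10 SE). The 3 long genes called higher were Slc7a11, Pde4b and Fras1, a basement membrane protein of 411 kb that Bu lowered in both siRNAs. Not every long gene differed: Fgfr2, a fibroblast growth factor receptor listed at 2960 kb, had a difference of 0.10 ± 0.09 (SE, 95% interval -0.09 to 0.28).

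Opposite movement was rare. The 25 genes called in opposite directions by siRNA were all among the 203, with 11 that fell in siGFP and rose in siTGR5 cells and 14 that did the reverse. Besides mt-Nd6, Pgam1, Pde4b and P2rx3, the 5 with the smallest p on the first side held Aox1, an aldehyde oxidase. On the other side these 5 were Fstl1, Ghr, Abhd5, Fig4 and Ank.

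Aox1 read 35.7, 33.2, 33.9, 33.3 and 35.7 CPM in siGFP DMSO and 29.9, 27.4, 27.9 and 30.1 CPM in siGFP Bu. It read 33.8, 32.3, 31.0, 29.4 and 32.2 CPM in siTGR5 DMSO and 35.8, 34.2, 36.2 and 36.7 CPM in siTGR5 Bu. The DMSO and Bu groups were separate in each siRNA, in opposite orders. The difference was 0.42 ± 0.06 (SE, edgeR adjusted p = 0.00161), not called without the 7 rod-marker libraries (edgeR adjusted p = 0.0834).

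Ghr, the growth hormone receptor, read 194, 195, 172, 196 and 189.7 CPM in siGFP DMSO and 229.9, 210.3, 215 and 211 CPM in siGFP Bu. It read 196, 171, 179, 179 and 173 CPM in siTGR5 DMSO and 159, 157, 153 and 157 CPM in siTGR5 Bu. Bu put it above DMSO with siGFP and below with siTGR5, with no overlap in either. The difference was -0.39 ± 0.06 (SE, edgeR adjusted p = 0.00192, and 0.0408 without the 7 rod-marker libraries).

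Fstl1, a secreted follistatin-like glycoprotein, read 446, 456, 450.2, 451 and 469.5 CPM in siGFP DMSO and 499, 477, 487 and 469 CPM in siGFP Bu. It read 467, 446, 443, 438 and 448 CPM in siTGR5 DMSO and 406, 389, 382 and 382 CPM in siTGR5 Bu. With siGFP the lowest Bu library was level with the highest DMSO library, and with siTGR5 all Bu libraries lay below the DMSO libraries. The difference was -0.29 ± 0.04 (SE, edgeR adjusted p = 0.00161, and 0.0208 without the 7 rod-marker libraries). Abhd5, a lipase co-activator, Fig4, a phosphoinositide phosphatase, and Ank, a pyrophosphate transporter, differed by -0.27, -0.30 and -0.41. Without the 7 rod-marker libraries Ank was called (edgeR adjusted p = 0.0325), and Abhd5 and Fig4 were not (edgeR adjusted p = 0.117 and 0.137). Among genes averaging at least 1 CPM, the called difference furthest below 0 was -1.23 ± 0.24 (SE) for Npy4r, a neuropeptide Y family receptor that rose by 47.9% with siGFP and fell by 36.8% with siTGR5. Tspan15, a tetraspanin, fell in both, by 12.8% and 29.1%, and its difference was not called without the 7 rod-marker libraries (edgeR adjusted p = 0.0726).

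Histone genes were also among the lower ones. Of 6 histone cluster and linker genes tested 2 were called, the linker histones Hist1h1c and H1f0, against 0.649% of all genes tested. Hist1h1c read 5.53, 6.03, 5.60, 5.10 and 5.81 CPM in siGFP DMSO and 5.65, 5.42, 4.48 and 4.94 CPM in siGFP Bu. It read 7.09, 7.04, 6.31, 6.97 and 7.34 CPM in siTGR5 DMSO and 4.71, 4.61, 4.29 and 4.48 CPM in siTGR5 Bu. It fell by 34.6% from a higher start with siTGR5, and the siGFP ranges overlapped. The calls of Hist1h1c and H1f0 held in 10 and 7 of the 18 fits without 1 library, and neither held without the 7 rod-marker libraries (edgeR adjusted p = 0.304 and 0.434).

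Among 78 ribosomal protein genes tested, Rps20 and Rpl13a were called lower, against 0.649% of all genes, and the median difference was -0.10. Rpl13a was called in 6 and Rps20 in all 18 of the fits without 1 library. Bu raised 32 of the 78 in siGFP cells and 15 in siTGR5 cells, against 15.7% and 12.9% of all genes. Rps20 read 92.4, 94.9, 97.2, 93.7 and 94.4 CPM in siGFP DMSO and 116, 137, 124 and 119 CPM in siGFP Bu. It read 71.6, 76.7, 76.2, 74.8 and 72.5 CPM in siTGR5 DMSO and 84.1, 79.8, 79.8 and 77.8 CPM in siTGR5 Bu. It rose in both without overlap, by 31.2% and 8.08%, from a lower level with siTGR5. The difference of -0.28 ± 0.06 (SE, edgeR adjusted p = 0.0156) was not called without the 7 rod-marker libraries (edgeR adjusted p = 0.137), where the median of the list was -0.03. Ribosomal protein genes have many processed pseudogenes that can share reads.

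Of 50 mitosis and G2/M genes tested, Bu raised 49 in each siRNA, with medians of 0.55 and 0.67, where 15.7% and 12.9% of all genes were raised. In the difference 0 were called, and the median difference was 0.09. Of the 50, 17 had an unadjusted p under 0.05, all with a higher effect in siTGR5 cells, and DESeq2 called 2. Over all 14783 genes tested these counts were 1993 in either direction and 402. Cdk1, the kinase that drives entry into mitosis, read 129, 132, 128, 129 and 139.9 CPM in siGFP DMSO and 205, 218, 213 and 228 CPM in siGFP Bu. It read 132, 130.5, 132, 133 and 134 CPM in siTGR5 DMSO and 208, 220.2, 236 and 229 CPM in siTGR5 Bu. The rise was 64.1% and 68.6%, and the difference of 0.04 ± 0.05 (SE) had a 95% interval of -0.07 to 0.15.

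Of 41 p53 targets tested, Bu raised 32 and lowered 1 in siGFP cells and raised 31 and lowered 1 in siTGR5 cells, with medians of 0.30 in both. Over all genes tested it raised 15.7% and 12.9%. The median difference of the p53 targets was -0.01 with 0 called by edgeR. At an unadjusted p under 0.05 there were 4 higher and 10 lower, against 1993 of all 14783 genes tested in either direction. Other settings called members lower, 2 with DESeq2, 1 with RLE size factors, 2 with a mean of at least 1 CPM, 5 with no filter on low counts and 1 with a replicate block. Perp, a p53-induced membrane protein, had a difference of -0.23 ± 0.06 (SE, edgeR adjusted p = 0.0528), which was called in each of these settings (adjusted p of 0.0113 to 0.049) and not without the 7 rod-marker libraries (edgeR adjusted p = 0.304). Cdkn1a read 406, 455, 391, 412 and 342 CPM in siGFP DMSO and 601, 613, 588 and 504 CPM in siGFP Bu. It read 424, 403, 362, 382 and 333 CPM in siTGR5 DMSO and 545, 478, 511 and 463 CPM in siTGR5 Bu. Both siRNAs showed a rise without overlap, and the difference was -0.13 ± 0.10 (SE, 95% interval -0.34 to 0.08). The pro-apoptotic genes Bax (-0.16 ± 0.09 SE), Bid (-0.14 ± 0.08 SE) and Bbc3 (-0.22 ± 0.12 SE) had negative estimates that were not called. Of 30 BCL2 family and caspase genes tested the effector caspase Casp6 was the 1 called, against 0.649% of all genes tested called lower. Casp6 rose with siGFP and fell with siTGR5 (difference -0.24 ± 0.06 SE). Its call held in 9 of the 18 fits without 1 library and not without the 7 rod-marker libraries (edgeR adjusted p = 0.126).

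Gfra1, the receptor for GDNF that marks spermatogonial stem cells, fell by 28.2% with siGFP and fell by 24.8% with siTGR5, with a difference of 0.07 ± 0.09 (SE, 95% interval -0.11 to 0.25). Ckmt1, the mitochondrial creatine kinase, fell by 35.1% with siGFP and changed by -0.06 ± 0.11 (SE) with siTGR5. Its difference of 0.57 ± 0.17 (SE) was not called (edgeR adjusted p = 0.105, 95% interval 0.21 to 0.92). Mmp24, a membrane metalloproteinase, rose by 27.5% with siGFP and changed by -0.19 ± 0.10 (SE) with siTGR5, and its difference of -0.54 ± 0.14 (SE) was not called (edgeR adjusted p = 0.0547). It was called with DESeq2 (adjusted p = 0.0111), no filter on low counts (edgeR adjusted p = 0.00548) and a mean of at least 1 CPM (edgeR adjusted p = 0.0482), and not without the 7 rod-marker libraries (edgeR adjusted p = 0.343). Of 17 spermatogonial genes tested 0 were called by edgeR or DESeq2, and 3 had an unadjusted p under 0.05, against 1993 of all 14783 genes tested.

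Of the remaining lists, 4 had 1 called member each, all higher, against 0.724% of all genes tested. These were replication (Ccnd2, a G1 cyclin, of 48 tested) and double-strand break repair (Mdc1, which binds marked chromatin at breaks, of 45). The others were snoRNA hosts and nonsense-mediated decay (Upf1, its helicase, of 28) and fibroblast markers (Col1a1, of 10). The call of Mdc1 (edgeR adjusted p = 0.0494) held in 3 of the 18 fits without 1 library and neither with RLE size factors (edgeR adjusted p = 0.0591) nor with a mean of at least 1 CPM (edgeR adjusted p = 0.0529). Without the 7 rod-marker libraries Ccnd2 was called (edgeR adjusted p = 0.0325), and Mdc1 and Upf1 were not (edgeR adjusted p = 0.355 and 0.141). None was called in the edgeR fit for sterol synthesis, interferon, heat shock, proteasome, lysosome, tubulin, splicing, microRNA machinery, nuclear receptor, Sertoli and Leydig or nuclear-retained genes. Over all 16 lists with 0 calls, 79 of 530 memberships had an unadjusted p under 0.05 and DESeq2 called 8. Of all 14783 genes tested, 1993 had an unadjusted p under 0.05 and DESeq2 called 402. Of the nuclear-retained transcripts, such as detained-intron RNAs of splicing factors, Bu lowered 23 of 27 with siGFP (median -0.37, against 16.2% of all genes). It lowered 14 with siTGR5 (median -0.23, against 13.9%), and the difference was positive in 27 of 27 with a median of 0.21. Their mean score relative to siGFP DMSO was -0.53 to -0.23 in siGFP Bu, 0.04 to 0.41 in siTGR5 DMSO and -0.19 to 0.00 in siTGR5 Bu, with siTGR5 DMSO 5 the highest. This score, like that of the hypoxia genes, was lowest in siGFP Bu, and its part in their difference was not tested.

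**Figure D5:**
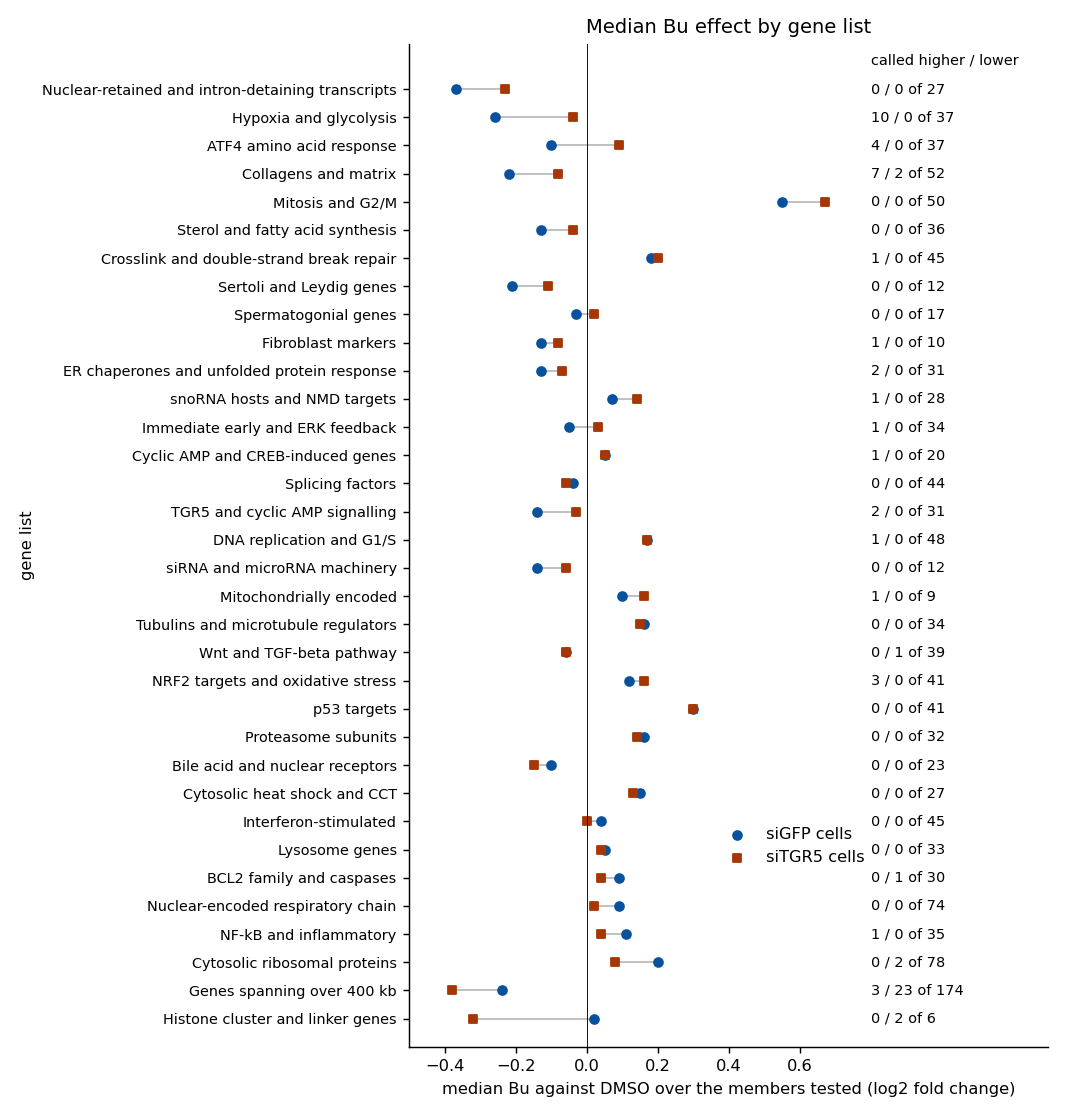
Median Bu effect (log2 fold change) over the tested members of 33 gene lists and of the 174 genes spanning over 400 kb, in siGFP cells (blue circles) and siTGR5 cells (brown squares), ordered by the median difference, with the members called higher and lower at the right. The list of rod photoreceptor markers is left out. Mitosis genes rose and p53 targets rose in both siRNAs, hypoxia and glycolysis had 10 called higher of 37, and long genes had 23 called lower of 174.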

How the data were processed

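RNA was measured by stranded poly(A) RNA sequencing in 18 libraries of GC1spg cells. The authors deposited raw read counts per Ensembl gene, made from uniquely aligned reads on mm10. The paper's methods name Hisat2 and Bowtie2 2.1.0, the submitters' processing notes name TopHat2 and Bowtie2 2.1.0, and both the notes and the methods name HTSeq for counting. The strand setting is not given in the sources used here. Multi-mapped reads are absent from such counts, which lowers genes with close copies.

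Counts were scaled by TMM, filtered with filterByExpr (minimum count 10, minimum total 15) and fitted with edgeR 4.0.16 in R 4.3.3 (limma 3.58.1), as 4 group means over the 18 libraries. The quasi-likelihood test of the difference and Benjamini-Hochberg adjustment over the 14783 genes tested gave the calls, at an adjusted p under 0.05. CPM values use the TMM-scaled totals, and list scores use log2(CPM + 0.5). Groups and replicate numbers come from the labels. The deposited table also holds normalised counts, which were not used, and columns of the authors' own fold changes and p-values, which were not used. No 2 libraries of a group differed by as little as sampling noise (chi-square per gene 2.92 to 17.7 over 32 pairs). Intervals have a 95% level, and total counts of 24745523 to 49638166 set the counting precision.

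Named genes were Gpbar1, the 8 called genes with the smallest p and the 6 with the largest difference (mean of 1 CPM or more) in each direction, the 5 opposite calls with the smallest p in each direction, up to 4 called members of each of 34 lists (where none was called, the member with the smallest p could be named) and genes that the paper discusses. Of these, 1 gene is not reported here. Other genes are named as such. The members and lists were chosen with earlier results of these data known. Alternatives were DESeq2 1.42.0, RLE size factors, other filters, a replicate block, leaving out the 7 rod-marker libraries and leaving out each library. The span class was added after seeing the data. Scripts were tested on simulated data.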

Additional observations from a re-analysis of the deposited data

Results flagged for a closer look

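The 203 genes whose Bu effect differed between siGFP and siTGR5 cells are themselves a difference between groups, tested by the interaction of siRNA and agent and described above. Besides these, 25 genes and 9 list scores were searched, group by group, for a library far from the others of its group, and 10 of 136 group values had one. Chance alone marks about 1 group in 20.

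In siGFP Bu, library 4 was low for Adgrg1 at 23.3 CPM (the others 25.4 to 25.7), high for P4ha2 at 237 CPM (212 to 215) and high for the hypoxia and glycolysis score at -0.25 (-0.31 to -0.30). Library 2 of the same group was low for Pde4b at 9.24 CPM (11.2 to 11.3). Both are rod-marker libraries. In siGFP DMSO, library 5, also a rod-marker library, was low for Col1a1 at 3046 CPM (3379 to 3483), and library 3 was low for Ghr at 172 CPM (190 to 196).

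In siTGR5 DMSO, library 1 was high for 5033406O09Rik at 10.6 CPM (10.1 to 10.2) and low for the ribosomal protein score at -0.37 (-0.22 to -0.18). Library 2 was high for Fgf21 at 2.18 CPM (1.42 to 1.55), and library 5 was high for the nuclear-retained transcript score at 0.41 (0.04 to 0.10).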

How the results depend on the processing

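No called difference among the named genes changed sign under any alternative. The alternatives use the libraries that gave the calls, so the kept signs are no independent test. The number of genes with a called difference was 402 with DESeq2 (184 higher, 218 lower, 199 shared with the 203), 411 with no filter on low counts (247 higher, 164 lower, 179 shared, of 30280 tested) and 47 without the 7 rod-marker libraries (29 higher, 18 lower). It was 201 with RLE size factors, 212 with a mean of at least 1 CPM, and 87 to 270 without 1 library. The share of higher calls was 52.7% in the main design, 45.8% with DESeq2, 60.1% with no filter and 61.7% without the rod-marker libraries. Bu calls in siGFP cells numbered 3009 without the rod-marker libraries and 4170 to 4770 without 1 library, and those in siTGR5 cells 3089 to 4264 without 1 library. Of 55 named called genes, 52 to 54 stayed called under the other tool, scaling, filter and block settings, 23 without the rod-marker libraries and 35 to 51 without 1 library. The causes of these changes were not tested, and leaving libraries out also lowers the number of samples. A replicate block gave 265 called genes (138 higher, 127 lower, 196 shared), but the replicate numbers do not pair the libraries. Same-numbered pairs from different groups had deviations correlated at -0.24 to 0.15 (mean -0.02, 25 pairs), and 0 libraries correlated best with their own number. The 96 pairs with different numbers ran from -0.28 to 0.32. Pairs of rod-marker libraries ran from -0.062 (siGFP DMSO 5 and siTGR5 Bu 1) to 0.32 (siGFP DMSO 1 and siTGR5 DMSO 4), the highest of all pairs. The part of these shared deviations in the calls was not tested. Low counts limit genes such as Gpbar1 and Fgf21.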

Other observations

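Some called genes outside the lists are given here one by one. They were picked after their values were seen and stand for no family or pathway. Gys1, the muscle-type glycogen synthase, fell by 23.9% with siGFP and changed by -0.378% with siTGR5 (difference 0.39 ± 0.06 SE, edgeR adjusted p = 0.00438), and Pgm2, a phosphoglucomutase, fell by 16.8% and changed by -2.76% (0.22 ± 0.06 SE, edgeR adjusted p = 0.0467). Gys1 was called in every alternative. Car12, a membrane carbonic anhydrase, fell by 32.6% with siGFP and 17.4% with siTGR5 (0.29 ± 0.06 SE, edgeR adjusted p = 0.0149). Car6, a secreted carbonic anhydrase, fell by 26.5% with siGFP and rose by 32.3% with siTGR5 (0.85 ± 0.19 SE, edgeR adjusted p = 0.0263).

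Adgrd1, an adhesion G protein-coupled receptor, fell by 45.1% with siGFP and 26.1% with siTGR5 (0.43 ± 0.08 SE, edgeR adjusted p = 0.0102). The latrophilin Adgrl2 changed by 1.28% with siGFP and fell by 26.9% with siTGR5 (-0.47 ± 0.10 SE, edgeR adjusted p = 0.0191).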
